A study of Rattus norvegicus with 12 samples.

Results

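The 10 genes described here encode proteins that build and anchor the sarcomere, the contractile unit of striated muscle: Actn2, Actn3, Ldb3, Myoz2, Myot, Mypn, Ankrd23, Des, Tmod4 and Klhl41. They were measured in long bone of ovariectomized (OVX) and sham-operated female rats on Affymetrix rat genome arrays. The genes were chosen by their function and by their measured means over all 12 arrays, so their differences between groups are a description and no test of the choice. They are 10 of 14217 genes and are read by 15 of 31042 probe sets, 6 of which belong to Ldb3 and 1 to each other gene. All 10 were measured and none was removed by a filter.

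The 12 arrays form 4 groups of 3, and every rat was a female Sprague-Dawley rat sacrificed on postnatal day (PND) 81. STBB OVX rats had a diet with 10% freeze-dried blueberry (BB) from PND 20 to PND 34 and then the control diet. LTBB OVX rats had the BB diet from PND 20 until PND 81. OVX rats and sham rats had the control diet, a casein diet, throughout. The ovaries of the first 3 groups were removed on PND 60, 3 weeks before sacrifice, and sham rats had a sham operation. Each array measured a pool of RNA from 2 to 3 rats, with at least 8 rats in a group, so p-values measure the spread between pools. The labels name the femur as the tissue, and the methods name the right tibia. Each value is a log2 signal centred so that the median of its probe set over the 12 arrays is 0. It shows differences between arrays, but neither the level of a gene nor whether it was above background.

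The Z-disc is the plate at each end of the sarcomere where actin filaments of opposite polarity are tied together. Alpha-actinins cross-link these filaments, and a layer of scaffold proteins holds them to titin, to signalling enzymes and to the intermediate filaments that keep neighbouring myofibrils in register. At its other end the thin filament is capped, which sets its length. All of this machinery is characteristic of skeletal and cardiac muscle. Bone cells use related, broadly expressed proteins for their own actin cytoskeleton.

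The start sites of 9 of the 10 genes are in a table of RefSeq promoters of the rat build GRCr8, and Myot was not matched. Each promoter covers 250 bases before the start site and 50 after it. Those of Klhl41, Myoz2, Ldb3 and Des are printed as examples of windows that hold CAGCTG, a MEF2 site or a CArG box, motifs known from muscle promoters. Tmod4 also holds CAGCTG and is not printed. All 10 genes were lower in OVX than in sham bone. Capitals mark 1 match per motif in each printed window. In Klhl41 (chr3:74841868-74842167, plus strand) they are the E-box form CAGCTG, which begins 203 bases before the start site, and a MEF2 site, 142 bases before it.
Klhl41: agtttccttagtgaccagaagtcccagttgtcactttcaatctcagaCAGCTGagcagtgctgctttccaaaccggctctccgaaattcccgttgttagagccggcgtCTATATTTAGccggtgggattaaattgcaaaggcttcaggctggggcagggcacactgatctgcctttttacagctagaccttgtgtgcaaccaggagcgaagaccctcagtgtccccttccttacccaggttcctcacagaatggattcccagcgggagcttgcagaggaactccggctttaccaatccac
In Myoz2 (chr2:213852729-213853028, minus strand, read along the gene) they are a MEF2 site, 53 bases before the start site, followed by CAGCTG, 32 bases before it.
Myoz2: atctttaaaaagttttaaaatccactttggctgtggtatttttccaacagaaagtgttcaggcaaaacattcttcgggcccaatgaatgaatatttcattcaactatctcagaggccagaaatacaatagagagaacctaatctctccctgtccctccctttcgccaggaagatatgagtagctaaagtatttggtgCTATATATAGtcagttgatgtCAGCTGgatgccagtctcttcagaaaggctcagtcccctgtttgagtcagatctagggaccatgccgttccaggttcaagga
In Ldb3 (chr16:9924630-9924929, minus strand, read along the gene) they mark a CArG box, 52 bases before the start site.
Ldb3: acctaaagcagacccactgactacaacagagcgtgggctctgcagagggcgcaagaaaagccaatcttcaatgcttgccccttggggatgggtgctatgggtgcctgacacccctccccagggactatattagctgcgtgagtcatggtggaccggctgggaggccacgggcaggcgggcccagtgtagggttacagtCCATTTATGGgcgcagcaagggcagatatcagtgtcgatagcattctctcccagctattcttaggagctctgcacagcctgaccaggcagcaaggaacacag
In Des (chr9:84299376-84299675, plus strand) they mark CAGCTG, 79 bases before the start site.
Des: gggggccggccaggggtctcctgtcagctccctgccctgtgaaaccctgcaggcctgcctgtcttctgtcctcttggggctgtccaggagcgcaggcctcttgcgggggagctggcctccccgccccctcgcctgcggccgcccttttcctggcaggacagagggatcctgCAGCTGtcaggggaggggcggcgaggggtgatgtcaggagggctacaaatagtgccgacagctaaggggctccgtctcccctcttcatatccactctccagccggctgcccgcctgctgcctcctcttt

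Both strands were searched. The E-box form CAGCTG, a preferred site of the myogenic regulators, was in 4 of the 9 promoters (Klhl41, Myoz2, Tmod4 and Des) and in 15.1% of all 33469 promoters of that length. The MEF2 site was in 2 of 9 (Klhl41 and Myoz2) and in 3.29% of all promoters. The CArG box, bound by serum response factor, was in 1 of 9 (Ldb3) and in 1.64% of all. The MCAT box CATTCC was in 2 of 9 (Mypn and Ankrd23, on the opposite strand in Mypn) and in 14.2% of all, and the TATA box TATAAA was in 1 of 9 (Mypn, also on the opposite strand) and in 14.2% of all. The general E-box CANNTG, which includes CAGCTG, was in 7 of 9 and in 72.1% of all promoters. These are matches of letters within the window and not measured binding.

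All 10 genes were lower in OVX bone than in sham-operated bone, and the 3 OVX pools lay below the 3 sham pools for every one. The difference ranged from -7.39 on the log2 scale for Myoz2 to -3.06 for Ldb3, with a median of -5.71, where the median of all genes was 0.00. By limma with Benjamini-Hochberg adjustment over all genes, 10 of 10 were called lower, beside 28.6% of all genes called lower in this contrast. The pools did not overlap in 10 of 10, beside 29.7% of all genes. The genes were chosen with values of these arrays known, so these counts, and those of the comparisons below, are no test of the choice. The sham arrays stood apart from the 9 arrays of OVX rats over the whole array: the values of all probe sets had a standard deviation of 0.78 to 0.82 on the sham arrays and of 0.14 to 0.19 on the others. Each probe set is centred on its median over the 12 arrays, 9 of them from OVX rats. A difference from sham therefore shows mainly on the sham arrays, and these spreads depend in part on the centring.

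**Figure D1:**
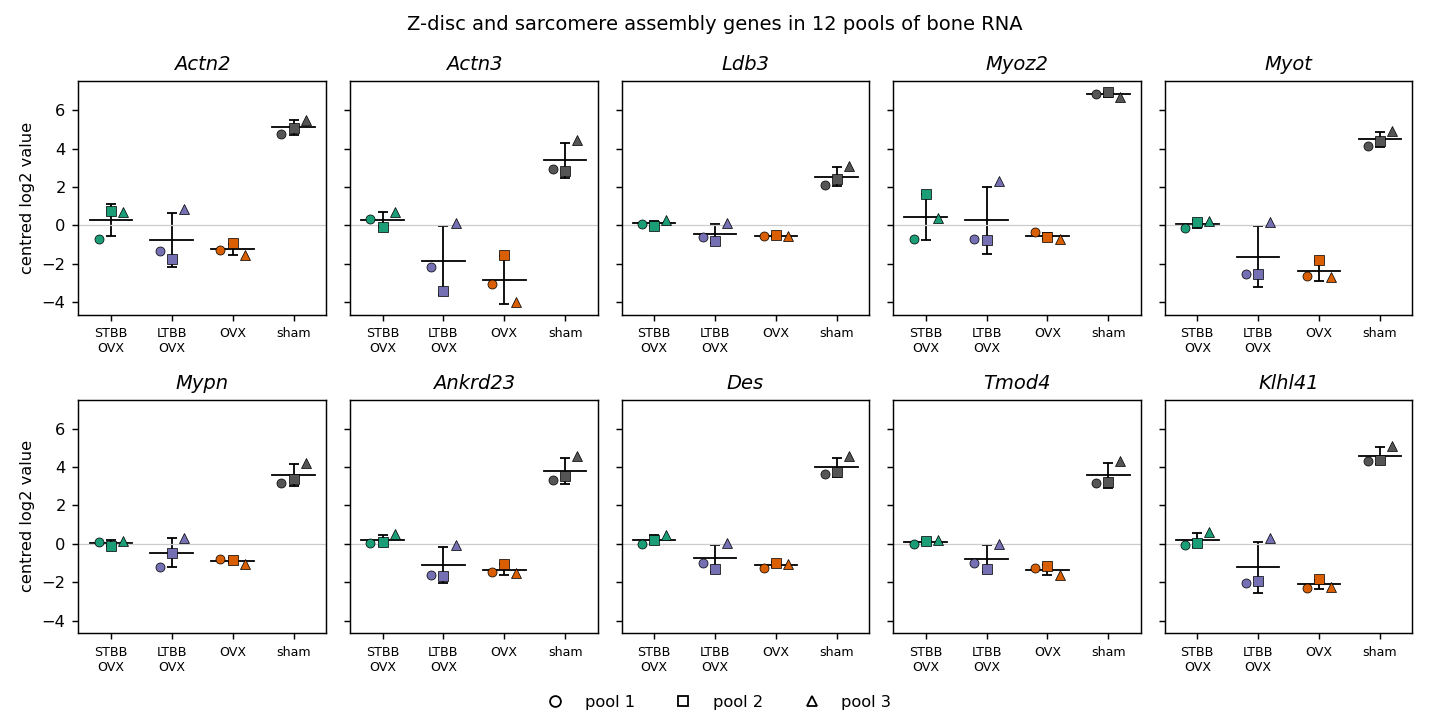
Centred log2 value (y axis) of each of the 10 genes in the 12 pools. Symbols are pools, the horizontal line is the group mean and the bar is the SD, n = 3 pools; for every gene the 3 sham pools lie above the other 9, and pool 3 is the highest of the LTBB OVX pools.

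The sarcomeric alpha-actinins were among the genes with the widest differences. Actn2, the alpha-actinin of all striated fibres, had values of -1.28, -0.94 and -1.55 in OVX pools 1 to 3, against 4.74, 5.05 and 5.51 in sham pools. Its OVX mean was 81.8-fold below its sham mean (log2 difference -6.35, confidence interval at 95% -7.57 to -5.14). Actn3, the isoform of fast fibres, had values of -3.05, -1.54 and -4.00 in OVX pools, against 2.92, 2.81 and 4.44 in sham pools. It was 76.4-fold lower in OVX (log2 difference -6.26 ± 0.79, SE), and its OVX pools differed among themselves by more than those of any other of the 10 genes.

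Among the scaffold proteins of the Z-disc, Myoz2 and Myot had the widest differences. Myoz2 (calsarcin-1) ties alpha-actinin to the phosphatase calcineurin and is the calsarcin of slow fibres and heart. Its values were -0.36, -0.62 and -0.69 in OVX pools, against 6.85, 6.95 and 6.69 in sham pools, a 167-fold lower mean in OVX. Both groups were tight for this gene, and sham pool 3, the highest sham pool for the 9 other genes, was the lowest for Myoz2. Myot (myotilin), which cross-links actin and binds alpha-actinin, had values of -2.66, -1.79 and -2.68 in OVX pools, against 4.13, 4.39 and 4.91 in sham pools. Its mean was 116-fold lower in OVX. Mypn (myopalladin), its relative, which links nebulin to alpha-actinin, ran from -1.04 to -0.78 in OVX and from 3.17 to 4.23 in sham, a 22.2-fold lower mean in OVX.

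Ldb3 (also called ZASP or cypher), which binds alpha-actinin through a PDZ domain, had the smallest difference of the 10 genes when its probe sets were averaged. Its mean over 6 probe sets was 8.37-fold lower in OVX (log2 difference -3.06 ± 0.24, SE). The probe sets disagreed in size. Of the 6, 4 had log2 differences of -3.72 (1372737_at), -4.26 (1371984_at), -4.71 (1375303_at) and -4.73 (1375982_at), and their OVX and sham pools did not overlap. The other two differed by -0.35 ± 0.11 (1394544_at) and -0.61 ± 0.20 (1397273_at), and their OVX and sham pools overlapped. For 1375982_at the values were -1.34, -0.75 and -1.08 in OVX pools, against 3.30, 3.49 and 4.21 in sham pools. For 1397273_at they were 0.11, -0.11 and -0.06 in OVX pools, against -0.04, 0.77 and 1.06 in sham pools, where sham pool 1 lay within the OVX range. The mean of the gene therefore lies between 2 kinds of probe set, and which transcripts each one reads was not analysed here.

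**Figure D2:**
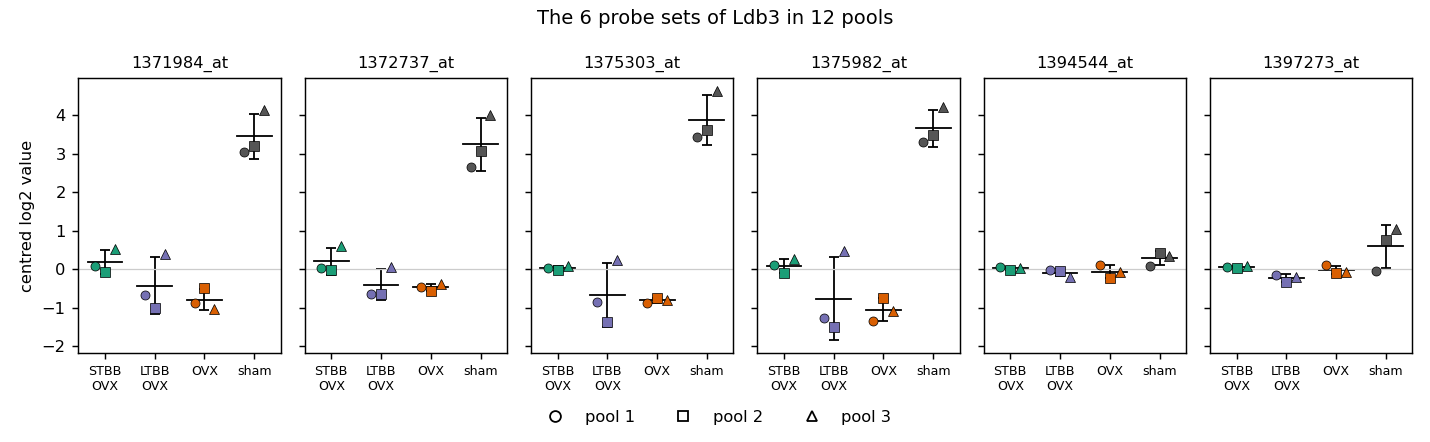
Centred log2 value (y axis) of the 6 probe sets of Ldb3 in the 12 pools, with the group mean and SD, n = 3 pools. In 4 probe sets the sham pools lie far above the others, and in 1394544_at and 1397273_at the difference is under 1 on the log2 scale.

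The genes that connect the Z-disc to stretch sensing and to the cell's filaments, cap the thin filament or assist assembly differed from sham in the same direction. Ankrd23, a muscle ankyrin repeat protein that binds titin in the I-band, had values of -1.48, -1.03 and -1.53 in OVX pools, against 3.32, 3.53 and 4.59 in sham pools. Des (desmin), the intermediate filament of muscle, had values of -1.23, -0.98 and -1.03 in OVX pools, against 3.66, 3.72 and 4.56 in sham pools. Their means were 35.8-fold and 33.4-fold lower in OVX. Tmod4, the skeletal muscle tropomodulin that caps the pointed end of the thin filament, ran from -1.64 to -1.17 in OVX and from 3.17 to 4.31 in sham, a 30.5-fold lower mean in OVX. Klhl41, a BTB-kelch protein that stabilizes nebulin and is needed for sarcomere integrity in mice, had values of -2.28, -1.83 and -2.22 in OVX pools, against 4.31, 4.35 and 5.11 in sham pools. Its mean was 104-fold lower in OVX.

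Levels of different genes cannot be set against each other on this scale, and the size of a difference may also depend on the probe set, so the order of the differences describes these probe sets. It was Myoz2, Myot, Klhl41, Actn2, Actn3, Ankrd23, Des, Tmod4, Mypn and Ldb3. Within this order the 95% intervals of the first 5 genes overlapped, as did those of Ankrd23, Des, Tmod4 and Mypn. The interval of Ankrd23 (-6.03 to -4.29) also overlapped those of all the first 5 genes, so the order has no break there. The interval of Ldb3 (-3.59 to -2.54) lay apart from those of all 9 other genes, but this rested on the mean of its 6 probe sets. With 1 probe set per gene Ldb3 differed by -4.26 (1371984_at, interval -4.98 to -3.55). This overlapped the intervals of Mypn (-5.17 to -3.78), Tmod4, Des, Ankrd23 and Actn3 (-7.96 to -4.55). In bulk RNA, fewer muscle cells and less RNA of these genes per cell cannot be told apart.

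In STBB OVX bone all 10 genes had a higher mean than in OVX bone, by 0.63 (Ldb3) to 3.17 (Actn3) on the log2 scale, with a median of 1.50, where that of all genes was -0.01. None was called by limma over all genes (adjusted p = 1 for each), beside 0% of all genes called higher. The pools of STBB OVX lay above all OVX pools for 9 of 10 genes, all but Myoz2, beside 4.26% of all genes. The unadjusted p was under 0.05 with a higher mean for the same 9 genes, beside 1.58% of all genes. When the fit held only the arrays of these 2 groups, 40 genes were called, among them 7 of the 10 (Klhl41, Myot, Ldb3, Tmod4, Mypn, Ankrd23 and Des, adjusted p 0.00764 to 0.0327). That fit leaves out the spread of the LTBB OVX and sham pools. The 3 comparisons among OVX rats share pools with each other and with the comparison to sham. The difference of Ldb3 from OVX, the smallest of the 10, is a mean of 6 probe sets, from 0.08 (1394544_at) to 1.15 (1375982_at).

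Actn3 had values of 0.31, -0.10 and 0.69 in STBB OVX pools, so its mean was 8.98-fold above that of the OVX pools given above (log2 difference 3.17, 95% interval 1.46 to 4.87). Myot had values of -0.16, 0.16 and 0.23 in STBB OVX pools, 5.47-fold above OVX (1.22 to 3.68). For Klhl41 they were -0.07, 0.07 and 0.61, 4.97-fold above OVX (1.27 to 3.35). In these 3 genes, the widest of the 10 in this comparison, every STBB OVX pool lay above every OVX pool.

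The other genes differed by less. Ankrd23 had values of 0.04, 0.10 and 0.52 in STBB OVX pools (2.97-fold above OVX), and Des had -0.03, 0.19 and 0.45 (2.44-fold). Tmod4 and Mypn ran from -0.01 to 0.21 and from -0.12 to 0.13 in STBB OVX, 2.79-fold and 1.91-fold above OVX. Actn2 had -0.70, 0.77 and 0.70 in STBB OVX pools, so pool 1 lay near the OVX pools and pools 2 and 3 well above them. Myoz2 had -0.70, 1.66 and 0.36, and pool 1 lay just below the lowest OVX pool. Its mean difference of 0.997 had an interval of -0.51 to 2.51.

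**Figure D3:**
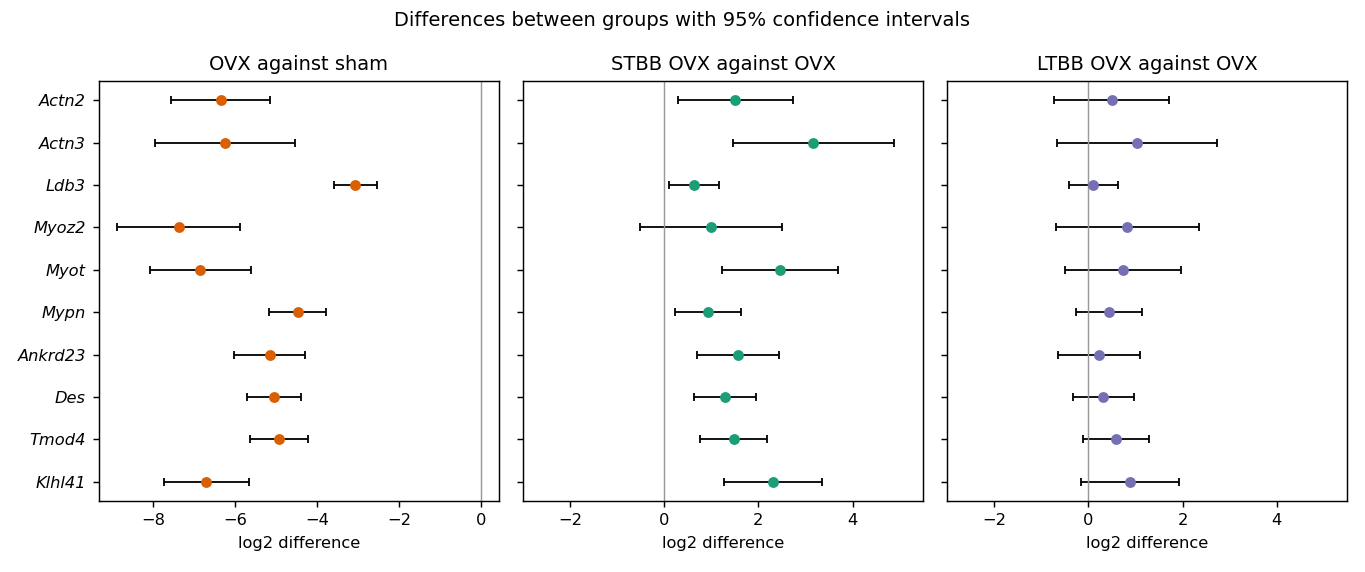
Log2 difference (x axis) of each gene for OVX against sham, STBB OVX against OVX and LTBB OVX against OVX, with 95% confidence intervals from limma; the x axis of the first panel has a different range. All differences from sham lie below -2, and the interval of Myoz2 is the only one in the middle panel that includes 0.

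In LTBB OVX bone the 10 means also lay above those of OVX bone, by 0.11 (Ldb3) to 1.03 (Actn3), with a median of 0.54, but the pools overlapped for all 10 genes and none was called (adjusted p = 1 for each), beside 0% of all genes called higher. Pools without overlap and higher in LTBB OVX were found for 0 of 10, beside 3.93% of all genes. The difference of Ldb3 is a mean of 6 probe sets, from -0.22 (1397273_at) to 0.37 (1371984_at). The 95% interval of every one of the 10 differences included 0, and the widest upper bound was 2.74 for Actn3.

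This difference rested on a single pool. LTBB OVX pool 3 was the highest of its group for 10 of 10 genes and lay above all 3 OVX pools for 10 of 10. Pools 1 and 2 lay above all OVX pools for 1 gene each (Tmod4 and Mypn). Klhl41 had values of -2.04, -1.93 and 0.28 in LTBB OVX pools 1 to 3, Myot had -2.55, -2.55 and 0.19, and Des had -0.999, -1.32 and 0.03. In each of these genes pools 1 and 2 were close to the OVX pools, and pool 3 was close to the STBB OVX pools. Actn3 had -2.18, -3.41 and 0.10, and Ankrd23 had -1.62, -1.68 and -0.04. Without pool 3 the median difference from OVX was -0.12, and 6 of the 10 genes had a lower mean in LTBB OVX than in OVX. The mean over the 10 genes was -1.42, -1.61 and 0.41 in LTBB OVX pools, -0.11, 0.29 and 0.42 in STBB OVX pools, and -1.50, -1.12 and -1.70 in OVX pools.

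Set directly against LTBB OVX, the STBB OVX means were higher for 10 of 10 genes, with a median of 0.99. None was called (adjusted p = 1 for each), beside 0% of all genes called higher, and the unadjusted p was under 0.05 for 7, beside 2.25% of all genes. The pools did not overlap for 1 gene, Ankrd23 (log2 difference 1.34, 95% interval 0.47 to 2.21), beside 5.3% of all genes. LTBB OVX pools 1 and 2 lay below all STBB OVX pools for 10 of 10 genes, whereas pool 3 lay at or above the lowest STBB OVX pool for 9 of 10. Without pool 3 of LTBB OVX, 8 genes were called, among them Klhl41 (adjusted p = 0.013) and Myot (adjusted p = 0.00915) by limma. Leaving out any other pool of these groups called none of the 10. Pool 3 stands out by the values of these same genes, so these calls are no separate test of the diets. Myoz2 differed by 0.17 between the diets, with an interval of -1.34 to 1.68.

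Neither BB group reached the sham pools. In STBB OVX bone the median log2 difference from sham was -3.68, from 5.39-fold lower for Ldb3 to 83.8-fold lower for Myoz2. The Ldb3 value is the mean of 6 probe sets, whose log2 differences ran from -3.87 (1375303_at) to -0.27 (1394544_at). In this comparison 10 of 10 genes were lower than in sham bone, without overlap. This stands beside 29% of all genes called lower in this contrast and 30.9% lower without overlap. In LTBB OVX bone the median was -5.08, and 10 of 10 were called lower without overlap, beside 29.1% of all genes called lower and 31.2% lower without overlap. Under a second quantile normalization the median against sham was -1.06 for STBB OVX, with 0 of 10 called, and -3.27 for OVX, with 10 of 10 called. That step took the deposited centred values and gave all arrays the same spread, although it was wider on the sham arrays. Smaller differences from sham therefore follow from the step itself, and 0 of 10 called does not show STBB OVX bone to be near sham.

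Over the 9 arrays of OVX rats most of the 10 genes varied together, and Myoz2 did so least. The correlation of a gene with the mean of the 9 others was 0.885 to 0.990, except for Myoz2 at 0.711. It includes the differences between the groups as well as those within them. The points share arrays, and the values are given without a test. Between STBB OVX pools 2 and 1, Myoz2 differed by 2.35 and Actn2 by 1.47, whereas the 8 other genes differed by -0.41 (Actn3) to 0.33 (Myot). In LTBB OVX, pool 3 lay above the mean of pools 1 and 2 by 3.02 for Myoz2, by 2.89 for Actn3 and by 0.84 for Ldb3.

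In STBB OVX, LTBB OVX and OVX, markers of slow fibres had the same order of pools as Myoz2, whereas in sham the order differed. In OVX, pools 1 and 2 were nearly equal for the slow markers. The mean of 7 slow fibre genes was -0.58, 1.44 and 0.23 in STBB OVX pools, -0.37, -0.59 and 1.59 in LTBB OVX pools, -0.52, -0.53 and -0.66 in OVX pools, and 4.26, 4.77 and 4.47 in sham pools. Tnnt1, the slow troponin T, differed by 3.69 between STBB OVX pools 2 and 1. The mean of 9 fast fibre genes was 0.11, 0.33 and 0.63 in STBB OVX pools, -1.58, -2.55 and 0.09 in LTBB OVX pools, -2.09, -0.97 and -2.36 in OVX pools, and 2.74, 2.61 and 3.65 in sham pools. OVX pool 2 and sham pool 3 were the highest of their groups for this list and for Actn3, as they were for most of the 10 genes, while in STBB OVX the lowest pool was pool 1 for the list and pool 2 for Actn3. Within the fast list Myh2 was 3.15 higher in STBB OVX pool 2 than in pool 1. The other fast genes differed by -0.71 (Myh4) to 0.31 (Myh1), so the low rank of pool 1 for the list rested on Myh2. In OVX and sham the highest pools of Myh2, 2 and 3, were those of the fast list.

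**Figure D4:**
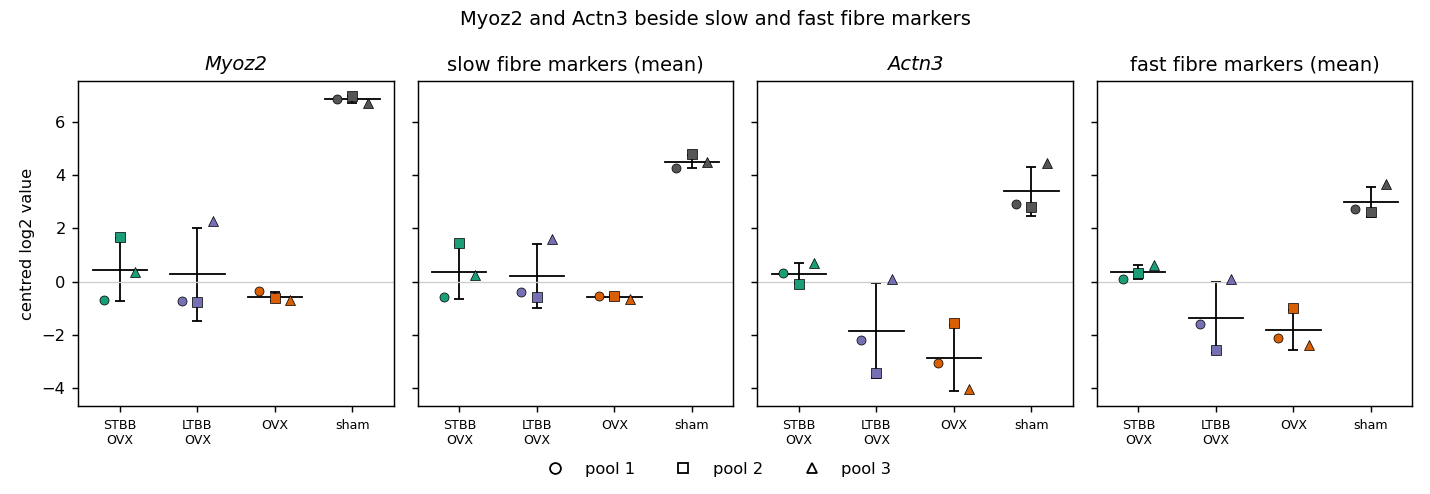
Centred log2 value (y axis) of Myoz2 beside the mean of 7 slow fibre markers, and of Actn3 beside the mean of 9 fast fibre markers, in the 12 pools, with the group mean and SD, n = 3 pools. STBB OVX pool 2 and LTBB OVX pool 3 are the highest of their groups for Myoz2 and for the slow markers, and OVX pool 2 is the highest of its group for Actn3 and for the fast markers.

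Other muscle genes moved with the Z-disc genes. Of 10 skeletal muscle markers outside the Z-disc, 10 were lower in OVX than in sham (median -5.56). Their mean was -2.92 to -1.29 in OVX pools and 2.85 to 3.99 in sham pools. It was 0.06 to 0.54 in STBB OVX pools and -3.12 to 0.13 in LTBB OVX pools, with pool 3 the highest of LTBB OVX. None of the 10 was called between OVX groups. Other cell types of the sample also differed between OVX and sham: 5 of 5 osteoblast markers (median 2.60), 4 of 5 cartilage markers (median 5.09) and 4 of 4 osteoclast markers (median 3.17) were higher in OVX, while 4 of 4 erythroid markers (median -1.93) and 3 of 3 neutrophil markers (median -2.72) were lower. In STBB OVX against OVX the medians of these 5 lists lay between -0.11 and 0.22. Of 6 smooth muscle markers 4 were lower in OVX (median -0.36). Over all genes, 30.3% were called higher in OVX than in sham and 28.6% lower. Whether the share of muscle or of other tissue in each pool bears on the 10 genes was not tested, and since the values hold no level, the presence of a cell type could not be read from its markers.

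The genes whose pattern was most like the mean of the 10 were muscle genes too. Over the 12 arrays these were Ryr1, the calcium release channel of skeletal muscle (r = 0.998), Neb, the giant ruler of the thin filament (0.997), Adss1, the muscle isozyme of adenylosuccinate synthase (0.997), and Cox6a2 and Cox8b, the muscle forms of 2 subunits of cytochrome c oxidase (0.996 and 0.995). Here the sham arrays form a cluster of their own. Over the 9 arrays of OVX rats they were Ckmt2, the mitochondrial creatine kinase of muscle (0.992), Ryr1 (0.992), Cox8b (0.992), Hjv, which encodes hemojuvelin (0.987), and Ttn, titin (0.984). These r values are a description over arrays that share pools, and carry no test.

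The measured relatives of the 10 genes, members of the same protein families, differed from sham in both directions. Of 24 measured relatives, 18 were called lower in OVX than in sham, 3 higher and 3 not, with a median of -1.14. Over all genes, 28.6% were called lower and 30.3% higher. Among the alpha-actinins, Actn2 and Actn3 differed by -6.35 and -6.26, against 1.20 and -0.40 for the non-muscle forms Actn4 and Actn1. Palld (palladin), the broadly expressed relative of Myot and Mypn, was 1.38 higher in OVX. Des differed by -5.06, whereas Vim (vimentin), the intermediate filament of mesenchymal cells, was 0.96 higher.

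The muscle isoforms among the relatives were lower in OVX, as were several broader ones. Myoz1 (calsarcin-2) of fast fibres had a log2 difference of -5.01, and Myoz3 one of -1.63. Pdlim3 (ALP) fell further (-4.31) than Pdlim5 (-1.28), Pdlim7 (-1.01) and Pdlim1 (-0.95), and Pdlim2 and Pdlim4 were not called at 0.17 and 0.14. Of the tropomodulins and leiomodins, Lmod2 (-4.12) and Tmod1, which is also the tropomodulin of red cells (-3.60), had the widest falls, before Lmod3 (-1.40), Lmod1 (-0.54) and Tmod2 (-0.37), and the broadly expressed Tmod3 was not called at 0.23. The ankyrin repeat proteins Ankrd2 (-3.86) and Ankrd1 (-2.25) fell, as did the BTB-kelch proteins Klhl31 (-2.16) and Klhl40 (-1.75). Gfap (-1.29) and Prph (-0.48), the type III filaments of glia and peripheral neurons, fell less than Des. All of these directions held when the arrays were centred or quantile normalized again, but after quantile normalization 10 relatives were called lower and 2 higher (Palld and Vim).

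**Figure D5:**
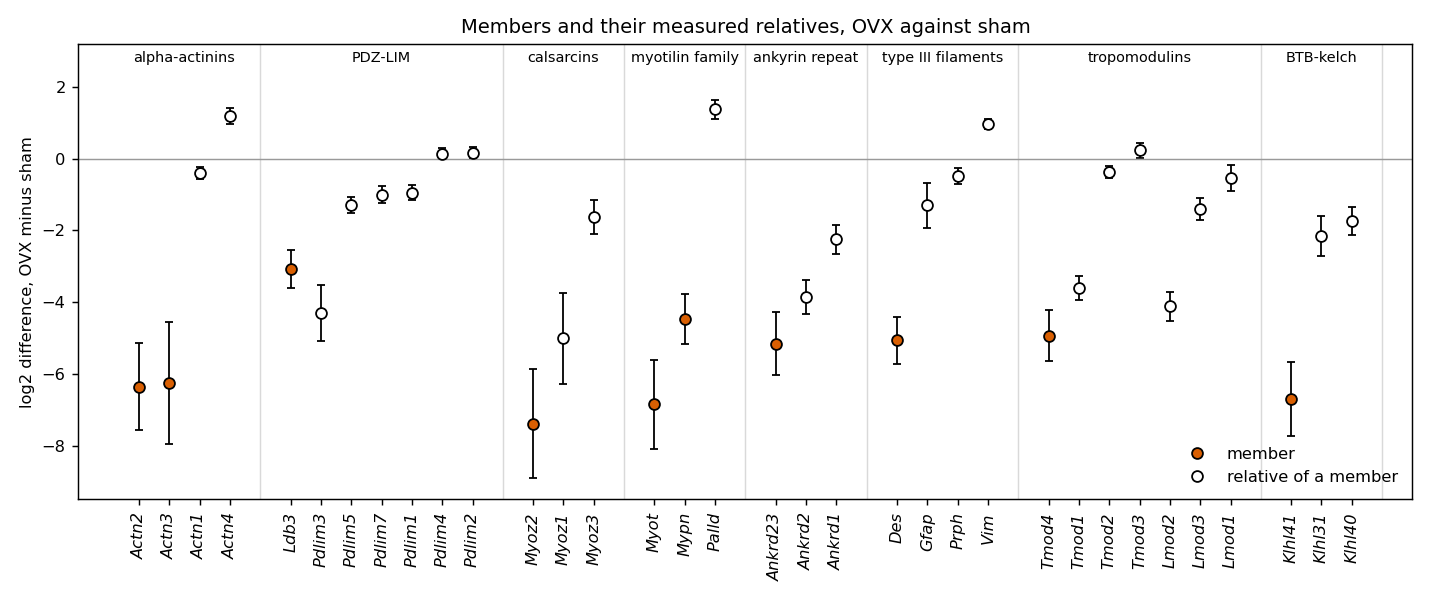
Log2 difference of OVX minus sham (y axis) with 95% confidence intervals for the 10 genes (filled) and 24 measured relatives (open), by protein family. Actn4, Palld and Vim, the 3 relatives called higher, lie above 0, as do Tmod3, Pdlim2 and Pdlim4, which were not called, and Ldb3 is the one filled point with a relative below it in its own family (Pdlim3).

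The relatives were also compared between the OVX groups. None was called in STBB OVX against OVX, where 15 of 24 had a higher mean and the median was 0.07. Myoz1 had the highest difference, 1.98 (95% interval 0.71 to 3.25), with values of 0.19, -0.07 and 0.58 in STBB OVX pools, against -1.45, -1.19 and -2.59 in OVX pools. In Myoz1, unlike Myoz2, STBB OVX pool 2 was the lowest of its group. In LTBB OVX against OVX 12 of 24 had a higher mean, with a median of -0.01.

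The 4 wider lists of sarcomere genes, none containing the 10, held more genes called lower than higher in OVX bone against sham. Over all genes, 28.6% were called lower and 30.3% higher. The lists include most of the relatives above, and the Z-disc and assembly lists share Tcap and Neb. Ckm is also among the skeletal muscle markers above, so these counts repeat some of the same values. Of 26 measured Z-disc genes 23 were called lower, 2 higher (Palld and Actn4) and 1 not (Capzb), with a median of -2.03. The widest falls were those of Tcap, which caps titin at the Z-disc (-5.49), Cryab, a chaperone of desmin (-5.27), and Cmya5 (-5.16). Of 21 genes of sarcomere assembly and thin filament length, 15 were lower and 3 higher, with a median of -1.40. Trim54, a muscle RING-finger protein (-5.49), Tcap and Neb (-4.52) had the widest falls, while the formin Fhod3 and the myosin chaperone Unc45a were higher by 0.74 and 0.64.

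The M-band and titin list had the lowest median of the 4, -4.75, with 5 of 7 lower. Ckm, the muscle creatine kinase bound at the M-band, had a log2 difference of -6.51, Ttn one of -6.23 and Myom2 (myomesin 2) one of -5.52. Fhl2 and Obsl1 were higher by 1.33 and 0.47. Of 15 genes of intermediate filaments and costameres, the links between Z-discs and the cell membrane, 8 were lower, 1 was higher (Vim) and 6 were not called, with a median of -0.31. The widest falls were those of Itgb1bp2, melusin (-2.81), Synm, synemin (-1.34), and Sgca, alpha-sarcoglycan (-1.30), and Nes (nestin) was not called at 0.08. No gene of the 4 lists was called between OVX groups. After quantile normalization the lists had 17, 10, 5 and 3 genes called lower in OVX against sham.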

How the data were processed

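Deposited values were made by the authors from Affymetrix scans, per the methods: robust multiarray analysis, log2 transformation, then GeneSpring normalization with a floor of 0.01, per chip and per gene. The submitters' processing notes name RMA and GCOS without versions. In the deposited log2 values every probe set is centred on a 12-array median of 0, so levels are lost, and no detection calls were used.

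After 57 controls were left out, 31042 probe sets remained. GEO's platform annotation gave 1 symbol to 20826, several to 436 and none to 9780. A gene is the mean of the probe sets carrying its symbol alone, which gave 14217 genes, with no filter on dim ones. Symbols were updated through RefSeq gene IDs. The 4 group means were fitted over all 12 arrays with limma 3.58.1 in R 4.3.3, with Benjamini-Hochberg adjustment at 0.05 over all genes in each of 6 contrasts. Intervals are moderated 95% intervals. With 3 pools a group, the smallest p of an exact two-sided permutation test is 0.1, and precision is limited by how few arrays there are.

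The 10 genes and all gene lists were chosen with earlier results of these data known. Named genes were the 10 genes with their probe sets, their measured relatives, the 3 largest falls and 2 largest rises of each of 4 lists, and the 5 genes most like the mean of the 10 over 12 and over 9 arrays. Kbtbd13 was listed but not analysed here. Other genes named, such as Tnnt1, Myh2 and Capzb, were chosen after their values were seen. Marker lists of endothelium, tendon and housekeeping genes were also fitted: in OVX against sham 3 of 3, 1 of 3 and 2 of 4 were higher, and 0, 2 and 1 lower. The shares of all genes were 30.3% higher and 28.6% lower.

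Pool numbers come from the labels, which mark no shared rats. Deviations of pools with the same number correlated at -0.38 to 0.09 in OVX against sham and in the comparisons among OVX rats, and at 0.10 to 0.23 in every pair of the 2 BB groups with sham, so the number was also fitted as a block. On simulated data with 200 changed genes of 14217, the fit recovered 99%, 92% and 97% of changes of log2 1 for OVX against sham, LTBB OVX against OVX and STBB OVX against OVX, and 100% of log2 2 in each, with 10, 12 and 13 false calls. These rates are for genes of all spreads: in STBB OVX against OVX the SE of the 10 genes was 0.243 to 0.785, and the median SE of all genes was 0.0905. Scaling, array weights, variance moderation, probe set choice, samples in the fit and single pools were varied. Motifs were searched in RefSeq promoters of GRCr8. Python 3.11.15 with matplotlib 3.10.9 drew the figures.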

Additional observations from a re-analysis of the deposited data

How the results depend on the processing

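In OVX against sham, all 140 values of single genes under 14 alternatives kept their direction and their call. With the replicate block, no call of the 10 genes changed in any comparison. In OVX against sham 10 of 10 stayed called lower, the median was -5.71, and 8196 genes were called in all, against 8367 without it. For the 3 comparisons with sham, pools left out in turn gave medians of -5.95 to -5.25 for OVX, of -5.83 to -4.56 for LTBB OVX and of -3.89 to -3.35 for STBB OVX.

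Quantile normalization, which gives every array the same distribution of values, moved most results. It was applied to the centred values, whose spread was wider on the sham arrays, so smaller differences from sham are built into it. Against sham it called 3010 genes for OVX, 3192 for LTBB OVX and 3142 for STBB OVX, where the deposited values gave 8367, 8290 and 8283. The medians of the 10 genes became -3.27, -2.55 and -1.06, and 0 of 10 were called in STBB OVX against sham. Myoz2 (adjusted p = 0.0976) and Actn2 (adjusted p = 0.117) were no longer called in LTBB OVX against sham by limma. The median of STBB OVX against OVX became 1.96, with 1 gene called in all, and 10 genes were called in STBB OVX against LTBB OVX. On the deposited values 0 genes were called in the 3 comparisons among OVX rats by limma, and 329 (LTBB OVX against OVX), 411 (STBB OVX against OVX) and 484 (STBB OVX against LTBB OVX) had an unadjusted p under 0.05.

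With only the arrays of the groups compared, 40 genes and 7 of the 10 were called in STBB OVX against OVX. With only the 9 arrays of OVX rats, a setting chosen after seeing the data, 0 were called, and the adjusted p of the 10 in this comparison was 0.595 to 0.999 by limma.

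Leaving out LTBB OVX pool 3 turned the median of LTBB OVX against OVX to -0.12, with a range of -0.12 to 0.93 over the pools left out. Single genes that turned without it were Myot (-0.17), Myoz2 (-0.18), Ldb3 (-0.18), Actn2 (-0.31), Ankrd23 (-0.31) and Des (-0.075), with highest values over the pools left out of 1.20, 1.34, 0.30, 0.998, 0.51 and 0.60. In STBB OVX against LTBB OVX, 0 to 8 genes and 0 to 2 of the 10 were called, the most without LTBB OVX pool 3, and Myoz2 ran from -0.44 to 1.17. It turned without STBB OVX pool 2 (-0.44), LTBB OVX pool 1 (-0.33) or LTBB OVX pool 2 (-0.34). In STBB OVX against OVX 0 to 1 genes were called, and without STBB OVX pool 1 there was 1 gene called in STBB OVX against OVX and 1 in STBB OVX against LTBB OVX. The cause of these changes was not tested. The number of arrays and the missing levels set the limits: a fold change near background is compressed, and where background lies cannot be read from centred values.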
